A study of Mus musculus with 6 samples.

Results

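The transcription factors examined here are PU.1, encoded by Spi1, 5 CCAAT/enhancer-binding proteins (Cebpa, Cebpb, Cebpd, Cebpe and Cebpg) and Klf4. They were taken by gene symbol, 7 genes of the 24063 in the count files, and all 7 had enough counts to be tested. RNA sequencing was performed on bone marrow LSK cells, lineage-negative cells positive for Sca-1 and c-Kit, among which are the blood stem cells and multipotent progenitors. Libraries came from 3 Asxl2-/- and 3 control mice of the C57BL/6 strain, all carrying Mx1-cre and all given pIpC, with cells taken 4 weeks after the injections. In the Asxl2-/- mice loxP sites flank exon 11 of Asxl2. The controls had the same Cre transgene and the same pIpC without loss of Asxl2. The Mx1 promoter responds to interferon, which pIpC, a synthetic double-stranded RNA, induces in the whole animal, so excision is not limited to blood cells.

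PU.1 is an ETS-domain factor that opens myeloid and lymphoid enhancers and, at high levels, directs progenitors to macrophage and granulocyte fates. C/EBP proteins are leucine-zipper factors that bind DNA as dimers with each other and with related partners, and work with PU.1 at the promoters of granule proteins and cytokine receptors. C/EBPα is needed for the step from multipotent progenitor to granulocyte-monocyte progenitor, C/EBPβ for granulocyte production under infection, and C/EBPε for late granulocyte maturation with its secondary granules. C/EBPδ is induced in inflammation. C/EBPγ has no activation domain of its own and acts through its partners, among them ATF4. The zinc-finger factor Klf4 lies downstream of PU.1 in monocyte differentiation.

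Spi1 (NM_011355, chr2:91096797-91115756 on mm10) has 5 exons, and Klf4 (NM_010637, chr4:55527137-55532475) likewise 5. Cebpa (NM_007678, chr7:35119293-35121931), Cebpb (NM_009883, chr2:167688915-167690432) and Cebpd (NM_007679, chr16:15887286-15889545) are single-exon genes. Cebpe (NM_207131, chr14:54710363-54712174) and Cebpg (NM_009884, chr7:35046422-35056566) have 2 exons each. Cebpg and Cebpa are neighbours on chromosome 7, 62726 bases apart, in opposite orientation. The exon of Cebpd shares 321 bases with the gene Spidr, and since the libraries were unstranded, reads from this stretch cannot be assigned to one of them.

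Promoters are shown for members that did and did not vary together across libraries, as the values below describe. RefSeq promoter sequences on GRCm38.p6, the assembly of mm10, were matched for 4 of the 7 members, and Spi1, Cebpd and Cebpe were not among them. The 250 bases before the start site are printed 5′ to 3′ on the strand of the gene, chr7:35119043-35119292 (plus strand) for Cebpa, chr2:167688665-167688914 (plus) for Cebpb, chr7:35056567-35056816 (minus) for Cebpg and chr4:55532476-55532725 (minus) for Klf4. Capitals mark matches to any of 5 motifs searched on both strands.
Cebpa: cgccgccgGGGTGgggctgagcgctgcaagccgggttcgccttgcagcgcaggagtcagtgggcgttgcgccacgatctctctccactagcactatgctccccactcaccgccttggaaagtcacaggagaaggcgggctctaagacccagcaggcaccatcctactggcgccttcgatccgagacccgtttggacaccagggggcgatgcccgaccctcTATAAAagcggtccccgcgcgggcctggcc
Cebpb: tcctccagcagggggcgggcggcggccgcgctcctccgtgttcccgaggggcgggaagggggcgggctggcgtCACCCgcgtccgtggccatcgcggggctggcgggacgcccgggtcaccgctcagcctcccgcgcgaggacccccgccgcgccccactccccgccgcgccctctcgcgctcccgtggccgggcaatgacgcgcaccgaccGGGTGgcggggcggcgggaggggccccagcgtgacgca
Cebpg: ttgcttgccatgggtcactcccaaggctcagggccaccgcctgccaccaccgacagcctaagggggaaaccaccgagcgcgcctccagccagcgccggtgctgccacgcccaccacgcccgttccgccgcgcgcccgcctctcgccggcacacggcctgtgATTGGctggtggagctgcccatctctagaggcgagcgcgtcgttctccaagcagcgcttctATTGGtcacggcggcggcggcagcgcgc
Klf4: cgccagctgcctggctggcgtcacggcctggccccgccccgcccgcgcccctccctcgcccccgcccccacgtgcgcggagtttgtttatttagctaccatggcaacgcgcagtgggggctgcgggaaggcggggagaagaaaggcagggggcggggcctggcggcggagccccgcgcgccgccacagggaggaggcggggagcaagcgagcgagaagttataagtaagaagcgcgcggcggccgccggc

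The motifs were GAGGAA for PU.1, found in 23.3% of 32851 promoters of the same table and length, TTNCGNAA for C/EBP dimers (2.04%), CACCC for Klf factors (52.0%), the CCAAT box (33.8%) and TATAAA for the TATA box (12.4%). In Cebpa a CACCC motif, read as GGGTG, lay 242 to 238 bases before the start and a TATA box 30 to 25 bases before it. Cebpb held CACCC motifs at 177 to 173 and, as GGGTG, at 38 to 34 bases before the start. In Cebpg the CCAAT box appeared as ATTGG at 89 to 85 and at 28 to 24 bases before the start. The Klf4 window held none of the 5 motifs, and GAGGAA and TTNCGNAA were in none of the 4 windows. No 2 of these matches overlapped. The GC content was 66.4% for Cebpa, 81.6% for Cebpb, 70.8% for Cebpg and 74.0% for Klf4. These are letter matches in short windows and carry no measurement of binding.

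The deposited counts were of 2 kinds, and every comparison below depends on this. Asxl2-/- replicates 1 and 3 and control replicate 2 had 1 count per transcript (gene-count files), whereas Asxl2-/- replicate 2 and control replicates 1 and 3 had 1 count per exon (exon-count files), where reads over a splice junction may enter at several exons. Totals were 25528740 to 29136231 in the former and 53151198 to 55036924 in the latter. Levels of the factors were therefore compared within a kind of file, and the kind was a term in every fit unless stated otherwise. Where sums or levels of other genes are set against all other libraries, they span both kinds without removal of the file kind. The deletion was visible in the exon counts, where exon 11 took 0.583% of Asxl2 counts in Asxl2-/- replicate 2 and 10.3% and 12.0% in control replicates 1 and 3. Xist had 49540 to 66689 counts in the Asxl2-/- libraries and 590 to 3194 in the controls, and 4 Y-linked genes had at most 2 counts per Asxl2-/- library and at least 1026 per control library, so genotype and sex cannot be told apart in any comparison here. LSK markers (8 genes) summed to 1102 to 1533 CPM (counts divided by the TMM-normalised library size) in all 6 libraries. Of 14145 genes tested with edgeR, 331 passed an adjusted p of 0.05 (2.34%), 288 of them raised (2.04%) and 43 lowered (0.304%) in Asxl2-/- cells. DESeq2 called 1181 raised and 1148 lowered, so the excess of raised genes depends on the test.

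None of the 7 factors passed that threshold. Spi1 and 4 Cebp genes differed more between libraries of the same genotype than between genotypes, and their difference had opposite signs in the 2 kinds of file. Within each kind of file Cebpg was slightly higher and Klf4 lower in every Asxl2-/- library than in the controls, by amounts that did not pass. With file kind removed, 23.6% of all tested genes had all Asxl2-/- libraries above all controls and 20.8% below. By other tests of the same counts, DESeq2 and limma-voom, 0 of 7 passed as well. Over all 14145 tested genes DESeq2 called 2329 and limma-voom 430. Klf4 came closest, at a DESeq2 adjusted p of 0.0569. At an unadjusted p of 0.05 edgeR called 1 of the 7, Klf4, where 3912 of all tested genes (27.7%) were called. In bulk samples such as these, fewer cells of a type and less RNA per cell cannot be told apart.

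Per kilobase of exon, Spi1 was the highest of the 7, with a CPM per kilobase of 41.3 to 91.2 over the 3 gene-count files, above Cebpa at 22.3 to 36.5. Cebpg followed at 15.6 to 17.8 and Cebpb at 9.59 to 16.5. Cebpe was at 2.90 to 9.76, Klf4 at 2.87 to 8.17 and Cebpd at 3.15 to 4.84. The ranges of Spi1, Cebpa and Cebpg did not overlap each other. Those of Cebpg and Cebpb, of Cebpb and Cebpe, and of Cebpe, Klf4 and Cebpd did. Compared library by library, Cebpb was above Cebpe in each. The order of Cebpg and Cebpb, and that of Cebpe, Klf4 and Cebpd, changed between libraries and was not resolved. The smallest count of any member was 102, for Cebpe, for which the counting error alone is 9.90% of the value. For Spi1 the smallest was 1560, with a counting error of 2.53%.

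**Figure D1:**
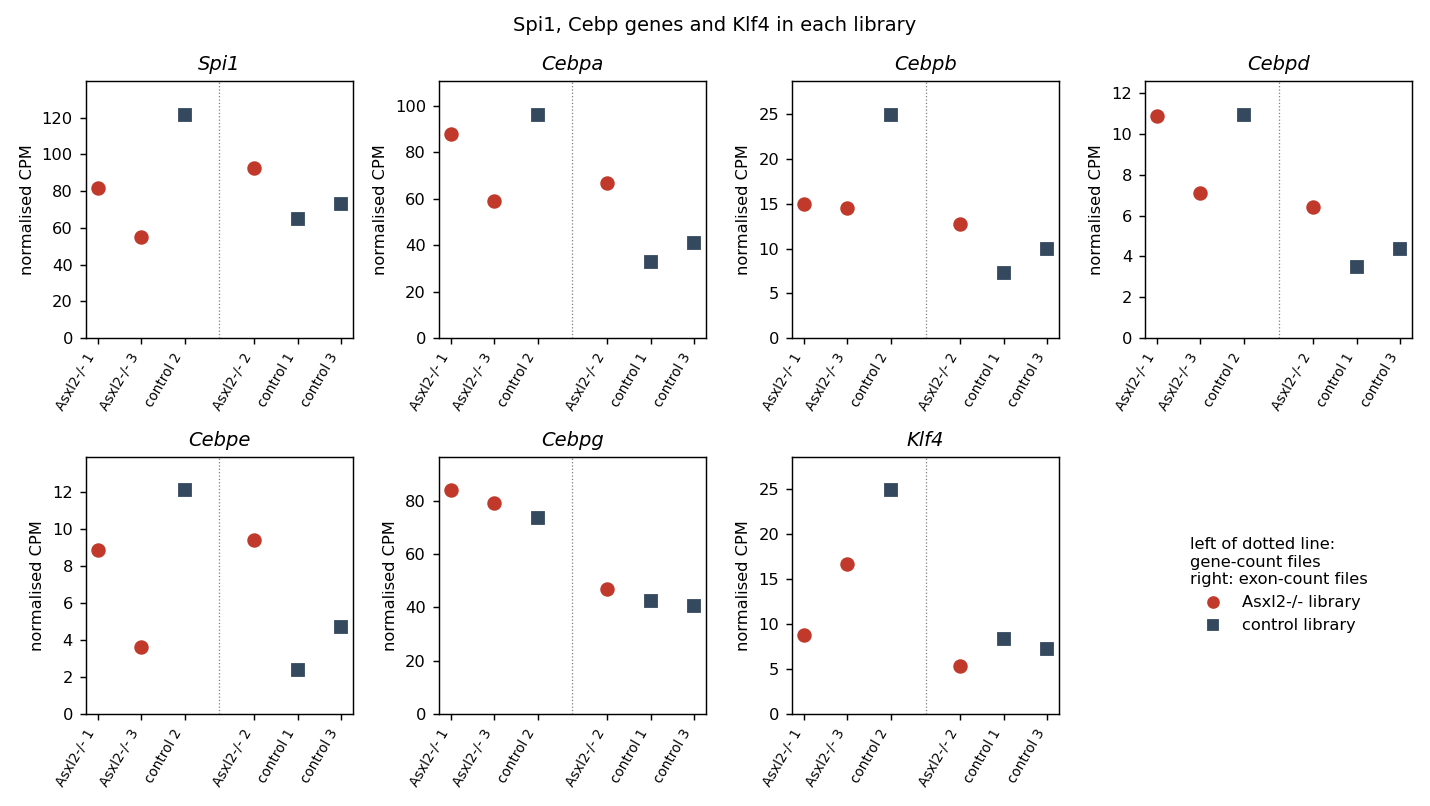
Normalised level (CPM, y axis from 0) of each factor in each library (x axis), with Asxl2-/- libraries as red circles and controls as blue squares; the dotted line separates gene-count files from exon-count files. Control replicate 2 is highest on the left and Asxl2-/- replicate 2 highest on the right for Spi1, Cebpa, Cebpb, Cebpd and Cebpe.

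Spi1 in the gene-count files was at 81.8 CPM in Asxl2-/- replicate 1, 55.0 in Asxl2-/- replicate 3 and 121.6 in control replicate 2. In the exon-count files it was at 92.8 CPM in Asxl2-/- replicate 2 and at 65.0 and 72.8 in control replicates 1 and 3. The single control was thus above both Asxl2-/- libraries among the gene-count files, and the single Asxl2-/- library above both controls among the exon-count files. With the fitted effect of the file kind removed, Spi1 stood at 6.19 ± 0.469 log2 CPM (SD, n = 3) in Asxl2-/- and 6.41 ± 0.381 (SD, n = 3) in control cells. The log2 fold change was -0.20 (SE 0.291, edgeR adjusted p = 0.691), with a 95% interval that runs from 0.534-fold to 1.42-fold of the control. Without control replicate 2 the value became 0.43 and without Asxl2-/- replicate 2 it became -0.83. In the exon-count files the 5 exons of Spi1 held between 13.2% and 27.9% of its counts in Asxl2-/- replicate 2, and the 95% Wilson interval of each share overlapped those of both controls. These intervals cover counting error only.

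Cebpa, which acts with PU.1 at the entry to the granulocyte-monocyte path, gave 87.7 and 58.9 CPM in Asxl2-/- replicates 1 and 3 and 96.2 in control replicate 2. In the exon-count files its level was 66.8 CPM in Asxl2-/- replicate 2 against 32.8 and 40.8 in control replicates 1 and 3. The order of the libraries was that of Spi1 in both kinds of file. Cebpa is a single-exon gene, so the sum over exons cannot count one read of it several times. Its log2 fold change was 0.23 (SE 0.298, edgeR adjusted p = 0.641), with -0.42 for gene-count files alone and 0.87 for exon-count files alone.

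Cebpb, the member tied to emergency granulocyte production, was at 15.0 and 14.6 CPM in Asxl2-/- replicates 1 and 3 and 25.0 in control replicate 2. Its exon-file values were 12.8 CPM in Asxl2-/- replicate 2, 7.25 in control replicate 1 and 9.96 in control replicate 3. Here control replicate 2 stood well apart from 2 nearly equal Asxl2-/- libraries. The log2 difference between groups, -0.09 (SE 0.300), lay well under the SDs of 0.388 and 0.449 within the groups (edgeR adjusted p = 0.872), and its sign changed when the kind of file was left out of the fit (0.0118).

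Cebpd, the inflammation-induced member, had 10.9 and 7.12 CPM in Asxl2-/- replicates 1 and 3 and 10.9 in control replicate 2. It was at 6.43 CPM in Asxl2-/- replicate 2 and at 3.49 and 4.39 in control replicates 1 and 3. The top 2 gene-count libraries were level, so for Cebpd the genotypes touched among these files and separated among the exon-count files. Its log2 fold change was 0.21 (SE 0.289, edgeR adjusted p = 0.669).

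Cebpe, the late granulocyte factor, varied most. It ranged over 3.33-fold within the gene-count files, from 3.60 CPM in Asxl2-/- replicate 3 through 8.84 in replicate 1 to 12.1 in control replicate 2. Within the exon-count files it ranged over 3.89-fold, from 2.38 CPM in control replicate 1 through 4.68 in control replicate 3 to 9.39 in Asxl2-/- replicate 2. The top library was thus a control in one kind of file and an Asxl2-/- library in the other. Fitted over all libraries, the log2 difference was 0.23 (SE 0.609) with an edgeR adjusted p of 0.837. It had the widest interval of the 7, 0.421-fold to 3.28-fold, and was -1.09 with gene-count files alone and 1.48 with exon-count files alone.

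Cebpg, the partner without an activation domain, showed the opposite behaviour. It was at 83.9 and 79.3 CPM in Asxl2-/- replicates 1 and 3 and 73.5 in control replicate 2, and at 47.0 CPM in Asxl2-/- replicate 2 and 42.4 and 40.5 in control replicates 1 and 3. Every Asxl2-/- library lay above every control of its kind, by little. The levels were 5.95 ± 0.0419 log2 CPM (SD, n = 3) in Asxl2-/- and 5.79 ± 0.0353 (SD, n = 3) in control cells, and the log2 fold change of 0.17 (SE 0.079) did not pass the test (edgeR adjusted p = 0.227), its 95% interval running from 0.982-fold to 1.28-fold. With file kind removed, 3337 of all tested genes (23.6%) had all Asxl2-/- libraries above all controls, so this separation is shared by many genes. The first exon of Cebpg held 2.24% of its counts in Asxl2-/- replicate 2 (95% Wilson interval 1.73 to 2.90), 3.30% in control replicate 1 (2.63 to 4.13) and 3.60% in control replicate 3 (2.85 to 4.53), with overlapping intervals.

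Klf4, the monocyte factor, was the only member with an unadjusted p under 0.05, as 27.7% of all tested genes had. It had 8.73 and 16.7 CPM in Asxl2-/- replicates 1 and 3 against 24.9 in control replicate 2, and 5.37 CPM in Asxl2-/- replicate 2 against 8.33 and 7.17 in control replicates 1 and 3. The control lay above the Asxl2-/- libraries in both kinds of file. With file kind removed, Asxl2-/- libraries averaged 2.98 ± 0.489 log2 CPM (SD, n = 3) and 3.76 ± 0.184 (SD, n = 3) in controls. The fitted log2 difference was -0.75 (SE 0.272), or 0.594-fold with a 95% interval of 0.376 to 0.939. In the edgeR quasi-likelihood fit p was 0.0318 and the adjusted p 0.148. After removal of the file kind, 2939 of all tested genes (20.8%) had all Asxl2-/- libraries below all controls. Asxl2-/- replicate 3, the highest Klf4 library of its group, also had the highest summed level of 16 immediate early genes, 3722 CPM against 1069 to 1514 in the other 5 libraries, with Fos at 803 CPM against 226 to 371. The part of this in the level of Klf4 was not tested. None of the 16 immediate early genes had an unadjusted edgeR p under 0.05. Without Asxl2-/- replicate 3 the log2 fold change of Klf4 was -0.97.

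**Figure D2:**
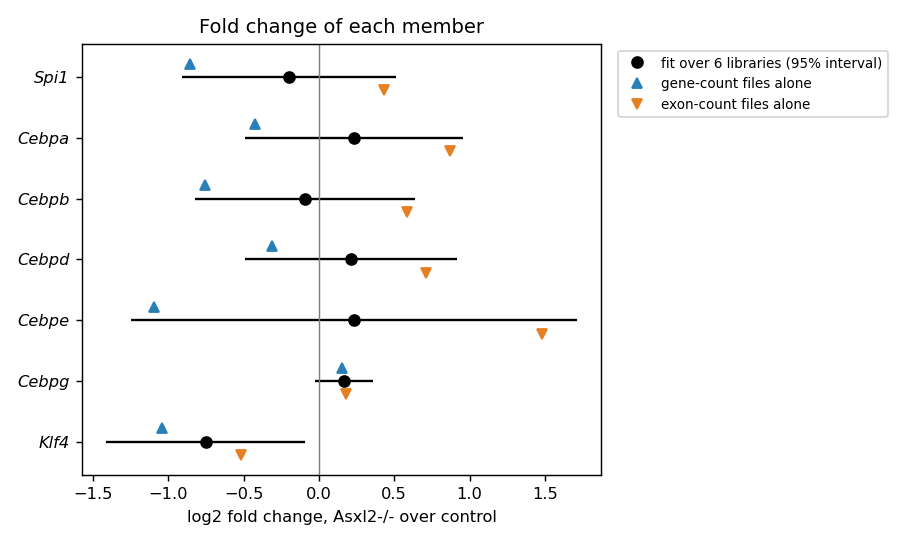
Log2 fold change (x axis, Asxl2-/- over control) of each factor (y axis) fitted over all 6 libraries with its 95% interval (black), and the same from gene-count files (blue triangles) or exon-count files (orange triangles). Only the interval of Klf4 (-1.41 to -0.09, unadjusted) leaves out 0; Spi1, Cebpa, Cebpb, Cebpd and Cebpe have blue values below 0 and orange values above it.

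The 5 factors Spi1, Cebpa, Cebpb, Cebpd and Cebpe ranked the libraries alike, a pattern noticed in the values. In the gene-count files each was highest in control replicate 2 and lowest in Asxl2-/- replicate 3, and in the exon-count files highest in Asxl2-/- replicate 2 and lowest in control replicate 1. In the gene-count files 2 of these gaps lay within counting error, between the top libraries for Cebpd (315 and 306 counts) and between the Asxl2-/- libraries for Cebpb (423 and 413 counts). Of all tested genes, 625 (4.42%) had this order, and 1166 (8.24%) had replicate 2 of each genotype on top within its kind of file. Over the 6 libraries with file kind removed, the Pearson correlation with Spi1 was 0.82 for Cebpa, 0.86 for Cebpb, 0.80 for Cebpd, 0.88 for Cebpe, -0.12 for Cebpg and 0.18 for Klf4. Cebpa correlated at 0.99 with Cebpd and 0.98 with Cebpe, and Klf4 at -0.84 with Cebpg. These coefficients describe 6 libraries whose depth and file kind are shared by all the genes.

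Within groups, 6 of the 7 factors varied more than most genes. The pooled SD over the groups was 0.427 log2 units for Spi1, 0.438 for Cebpa, 0.420 for Cebpb, 0.382 for Cebpd and 0.934 for Cebpe, against a median of 0.144 over all tested genes. For Cebpe 97.2% of genes had a smaller SD. Klf4 was at 0.369. For Cebpg it was 0.0387, and 3.46% of genes had a smaller one.

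Genes whose levels followed Spi1 most closely, among 9686 with a mean of at least 3 log2 CPM, were Plekha1 (r = 0.9993), Trabd (0.9988) and Arsb (0.9987), over the same 6 libraries. For Cebpa they were Ikbke (0.9996), Cnih4 (0.9985) and Sgk3 (0.9964). They were picked as the highest of 9686 coefficients over only 6 libraries. Such high values are therefore no measure of shared regulation, which was not tested. Arsb went from 56.2 CPM in Asxl2-/- replicate 3 to 122.1 in control replicate 2, close to the range of Spi1 itself, whereas Trabd moved only from 49.0 to 73.3 CPM between the same libraries.

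Granule and phagocyte proteins, the best known products of PU.1 and C/EBP activity, were followed as a list of 16 genes. Of these, 2 were raised and none lowered (2.04% and 0.304% over all tested genes), with a median log2 fold change of 0.37 (all tested genes, 0.000435), -0.16 with gene-count files alone and 1.01 with exon-count files alone. The raised genes were Ltf (lactoferrin, log2 fold change 3.52, edgeR adjusted p = 0.0404) and Ngp (neutrophilic granule protein, 3.62, edgeR adjusted p = 0.0444), both of secondary granules. Ltf was at 21.7 and 5.71 CPM in Asxl2-/- replicates 1 and 3 against 1.18 in control replicate 2, and at 7.72 CPM in Asxl2-/- replicate 2 against 0.537 and 0.823 in control replicates 1 and 3. Genotypes did not overlap for Ltf in either kind of file. With file kind removed, 23.6% of all tested genes had all Asxl2-/- libraries above all controls. The library order of Ltf was not that of Cebpe. The 8 neutrophil markers, which include Ltf and Ngp, summed to 218, 104 and 48.0 CPM in Asxl2-/- replicates 1, 2 and 3 and to 15.3, 38.3 and 20.0 CPM in control replicates 1, 2 and 3. None of these 8 was at 0 in any library. The part of such cells in the values of Ltf and Ngp was not tested.

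The primary granule genes Mpo, Elane, Prtn3 and Ctsg, picked out after their values were seen, followed the transcription factors instead. Mpo (myeloperoxidase) was at 3031 and 1749 CPM in Asxl2-/- replicates 1 and 3 and 5506 in control replicate 2, and at 4732 CPM in Asxl2-/- replicate 2 and 1850 and 3628 in control replicates 1 and 3. Elane, Prtn3 and Ctsg had the same library order, as did Ms4a3 and the oxidase subunit gene Ncf1. That made 6 of the 16, where 4.42% of all tested genes had this order. Mpo had a log2 fold change of -0.21 (edgeR adjusted p = 0.817), with -1.26 among gene-count and 0.87 among exon-count files.

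**Figure D3:**
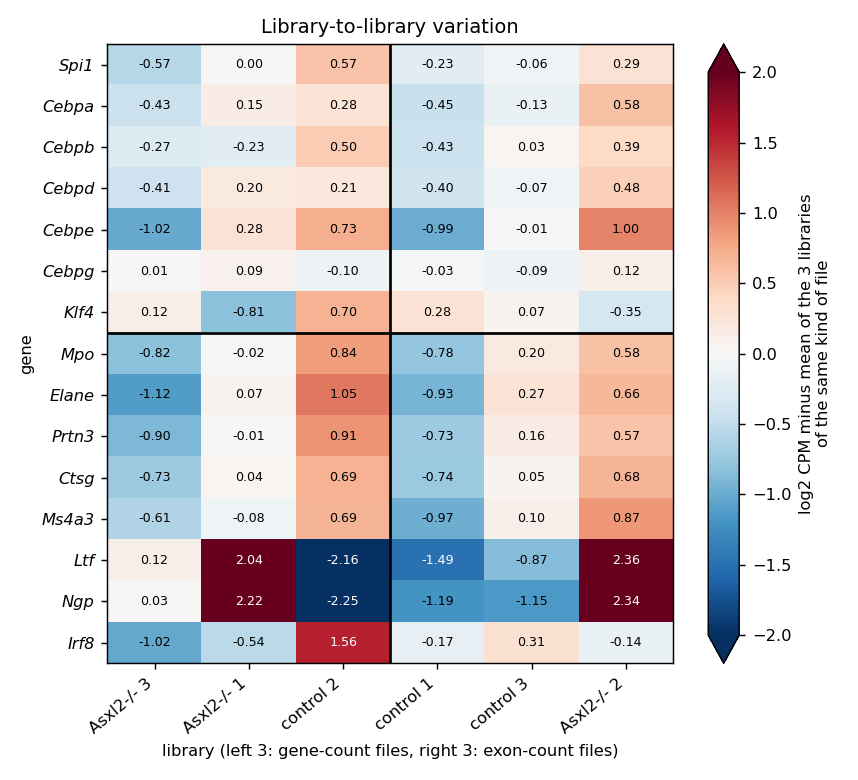
Level of each gene (rows) in each library (columns) as log2 CPM minus the mean of the 3 libraries of the same kind of file. Red is above and blue below that mean, with the value printed. The vertical line divides the kinds of file and the horizontal line the 7 factors from the other genes. The 5 factors and Mpo to Ms4a3 rise from left to right within each block, whereas Ltf and Ngp are high in Asxl2-/- replicates 1 and 2 and low in control replicate 2.

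**Figure D4:**
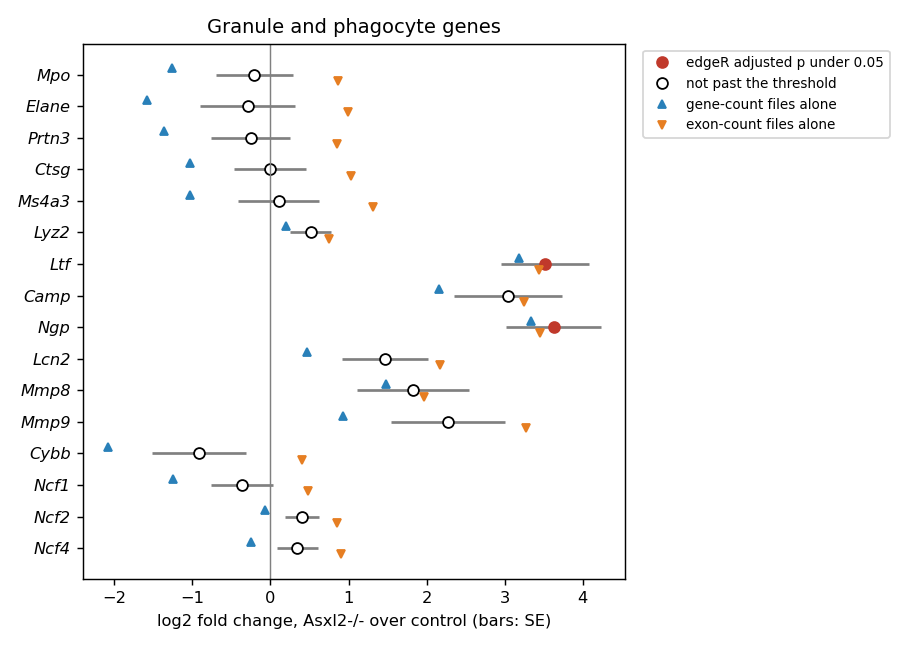
Log2 fold change (x axis, Asxl2-/- over control, bars show the SE) of the 16 granule and phagocyte genes (y axis), filled red where the edgeR adjusted p was under 0.05, with values from gene-count files in blue and from exon-count files in orange. Ltf and Ngp lie above 3 in all 3 values, and Mpo, Elane, Prtn3, Ctsg and Ms4a3 lie on both sides of 0.

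Among 17 cytokine and surface receptors regulated by PU.1 or C/EBP factors none passed in either direction. Their median log2 fold change was -0.02, but -0.73 for gene-count files and 0.60 for exon-count files. The library order of Spi1 was held by 7 of the 17, where 4.42% of all tested genes had it. Csf1r, the macrophage colony-stimulating factor receptor and a classical PU.1 target, had that order, with 33.0 and 14.3 CPM in Asxl2-/- replicates 1 and 3, 73.4 in control replicate 2, 28.5 in Asxl2-/- replicate 2 and 13.3 and 27.5 in control replicates 1 and 3; it was named after its values were seen. The receptors with the smallest p were Itgam (CD11b, log2 fold change 1.01, edgeR adjusted p = 0.0528) and Csf3r (granulocyte colony-stimulating factor receptor, 0.64, edgeR adjusted p = 0.0854). Both were higher in every Asxl2-/- library than in the controls of its kind. With file kind removed, 23.6% of all tested genes had all Asxl2-/- libraries above all controls. The monocyte and macrophage markers found, 7 of 8 (Adgre1 was not matched by symbol), summed to 467 CPM in control replicate 2 and to 76.9 to 169 CPM in the other 5 libraries. None of the 7 was at 0 in any library, and C1qa, which marks mature macrophages, was at most 3.16 CPM. The part of monocytic cells in the high values of Spi1, Cebpb, Klf4 and Csf1r in control replicate 2 was not tested.

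The other regulators of myeloid fate, 24 genes, gave none past the threshold and a median log2 fold change of 0.11. The smallest p values were those of Klf1, the erythroid Klf factor (log2 fold change -1.07, edgeR adjusted p = 0.103), and of Runx1, which acts upstream of Spi1 in blood development (0.30, edgeR adjusted p = 0.103). Irf8, the partner of PU.1 in monocyte and dendritic cell development, was named after its values were seen because control replicate 2 stood apart, at 523 CPM against 87.3 to 168 in the other 5 libraries. Its log2 fold change was -1.27 (edgeR adjusted p = 0.143), -2.34 among gene-count and -0.21 among exon-count files.

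Among 14 genes listed as C/EBP-interacting or as related leucine-zipper factors, not all of them with a leucine zipper, none passed and the median was -0.05. Batf3, a dendritic cell factor, had the smallest p (log2 fold change -2.23, edgeR adjusted p = 0.119), with 8.20 CPM in control replicate 2 and 0.461 to 2.36 in the other libraries. Atf4, the partner of C/EBPγ in the stress response, followed at -0.33 (edgeR adjusted p = 0.133). Its levels were lower in every Asxl2-/- library than in the controls of its kind, the reverse of Cebpg. With file kind removed, 20.8% of all tested genes had all Asxl2-/- libraries below all controls. Of the other 16 Klf genes, 13 were tested and none passed, with a median of -0.03. Klf1 and Klf3 had the smallest p, Klf3 with a log2 fold change of -0.81 (edgeR adjusted p = 0.11). In the immediate early list the smallest p were those of Btg2 (0.43, edgeR adjusted p = 0.223) and Dusp1 (0.73, edgeR adjusted p = 0.304).

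Each library labelled replicate 2 is the only one of its genotype in its kind of file, so a fit without it rests on the other kind of file alone for the comparison. Without control replicate 2 the log2 fold change of Spi1, Cebpa, Cebpb, Cebpd and Cebpe was 0.43, 0.86, 0.58, 0.71 and 1.42, and without Asxl2-/- replicate 2 it was -0.83, -0.39, -0.76, -0.28 and -0.96. These values repeat the opposite signs of the 2 kinds of file. Cebpb was also above 0 without Asxl2-/- replicate 1 (0.0118) or replicate 3 (0.00987), and Cebpe was at -0.16 without control replicate 1. Cebpg stayed between 0.14 and 0.18 and Klf4 between -0.97 and -0.53, with no change of sign in the 6 fits. Without the file kind in the fit Cebpg moved to 0.43 and Klf4 to -0.39.

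**Figure D5:**
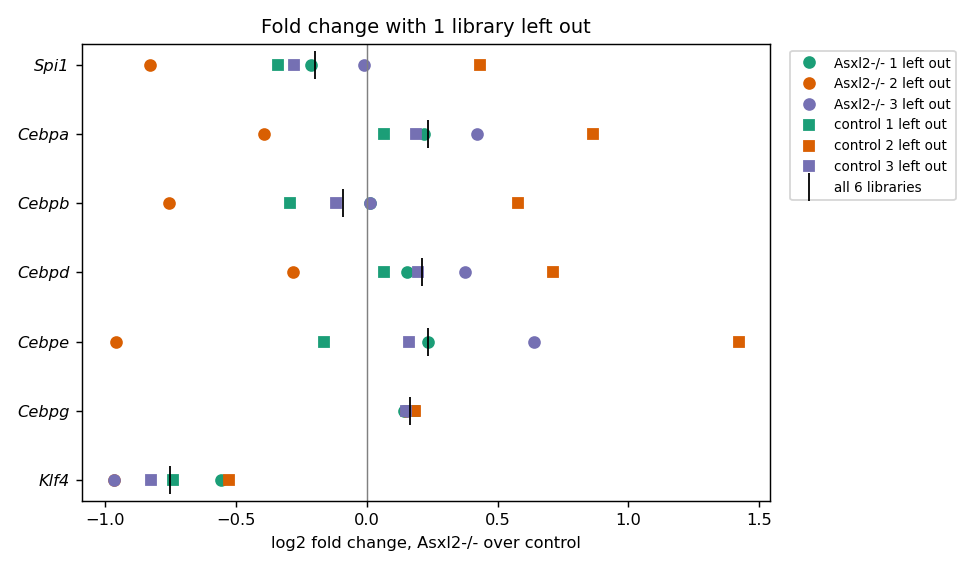
Log2 fold change (x axis, Asxl2-/- over control) of each factor (y axis) with each library left out in turn (circles for Asxl2-/- and squares for control libraries, coloured by replicate number), beside the value over all 6 libraries (black bar). Orange squares (control replicate 2 left out) are on the right and orange circles (Asxl2-/- replicate 2 left out) on the left of 0 for the first 5 genes; all points for Cebpg lie right and all for Klf4 left of 0.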

How the data were processed

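LSK cells were profiled by poly(A)-selected, unstranded RNA sequencing with 3 biological replicates per group. The deposited values were raw counts, made by the authors on mm10 with RefSeq transcripts. The submitters' processing notes name STAR, featureCounts and DESeq2. The study tested expression with Cuffdiff, which needs aligned reads and was not used here. Each symbol was represented by the transcript with the longest summed exons (24063 of 33068 transcript lines), and the exon-count files (317548 lines) were summed over its exons. Over genes with 1 exon the median ratio of exon-file to gene-file counts was 1.13, and over genes with more than 5 exons 1.90. Counts were tested with edgeR 4.0.16 in R 4.3.3 (glmQLFit, glmQLFTest, TMM, filterByExpr, file kind plus group, 3 residual degrees of freedom), two-sided, with Benjamini-Hochberg adjustment over 14145 genes. SEs came from the F statistic. SDs refer to log2 CPM without the fitted file effect and are somewhat too small. The script was tested on simulated data. Members and lists were chosen with earlier results of these data known. All 7 members are named, with, from each list, up to 3 genes past the threshold or the 2 with the smallest p, and for Spi1 and Cebpa the 3 most correlated genes. Marker lists for B cells, T and NK cells, erythroid cells, megakaryocytes and mast cells were also measured. Alternatives used DESeq2 1.42.0 and limma-voom 3.58.1, other scalings and filters, other terms, the longest exon, single-exon genes, each kind of file alone and 1 library left out. Values of some single marker genes are not reported here.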

Additional observations from a re-analysis of the deposited data

How the results depend on the processing

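Over all genes, 331 passed with the design described. The number was 2329 with DESeq2 (1181 raised, 1148 lowered), 161 with library size only, 36 of 683 with single-exon genes only, and 9 (without control replicate 3) to 1312 (without control replicate 1) with 1 library left out. A replicate block added to the file kind gave 5189 genes (2772 raised, 2417 lowered). It called 1 of the 7 factors, Klf4 (log2 fold change -0.78, edgeR adjusted p = 1.05e-05). That fit left only 1 residual degree of freedom, so its variances rest almost wholly on values shared over genes. Its number of genes and its call of Klf4 carry that limit. Whether the replicate numbers pair the samples could not be decided, and the labels give only a shared number. The deviations of same-numbered libraries correlated at 0.294, -0.00785 and -0.00285, and Asxl2-/- replicates 2 and 3 correlated best with another number. The file kind was not removed from these deviations. Same-numbered libraries were always of different kinds, so low values cannot exclude pairing. The block changed no other member's call. With 1 library left out, 0 of 7 factors passed in each of the 6 fits. The log2 fold change then lay between -0.83 and 0.43 for Spi1, -0.39 and 0.86 for Cebpa, -0.76 and 0.58 for Cebpb, -0.28 and 0.71 for Cebpd, -0.96 and 1.42 for Cebpe, 0.14 and 0.18 for Cebpg, and -0.97 and -0.53 for Klf4. A fit that leaves 1 library of a group in a kind of file assumes that it varies like the others. In the gene-count and exon-count files alone, a value with no test, it was -0.86 and 0.43 for Spi1, -0.42 and 0.87 for Cebpa, -0.75 and 0.59 for Cebpb, -0.31 and 0.71 for Cebpd, and -1.09 and 1.48 for Cebpe. Cebpb reversed with library size only (0.0112), without the file kind (0.0118) and with the block in its place (0.22), and also without Asxl2-/- replicate 1 (0.0118), Asxl2-/- replicate 3 (0.00987) or control replicate 2. Cebpe reversed without Asxl2-/- replicate 2 or control replicate 1 (-0.16), Spi1 without control replicate 2, and Cebpa and Cebpd without Asxl2-/- replicate 2. In each of these cases the cause was not tested. Cebpg and Klf4 kept their sign in all 16 tested alternatives, but not their size, at 0.43 and -0.39 without the file kind and 0.45 and -0.27 with the block in its place.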

Other observations

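Other cell type markers bear on how the sorted fraction compares between the groups. B cell genes were raised, 6 of 7, where 2.04% of all tested genes were (Cd79b, at an edgeR adjusted p of 0.0507, was the exception), and their sum was 141 to 146 CPM in the Asxl2-/- libraries against 36.9 to 54.0 CPM in the controls. Ebf1, which opens the B cell programme, had a log2 fold change of 2.18 (edgeR adjusted p = 0.0183). Megakaryocyte genes were raised in 2 of 5, beside the same 2.04%. Of the LSK markers, Slamf1 had a log2 fold change of 1.52 (edgeR adjusted p = 0.0196). No erythroid (6 genes), T and NK cell (5 tested) or mast cell and basophil (5 genes) marker passed in either direction, and T and NK cell genes summed to 8.64 to 20.5 CPM in the 6 libraries. The library order of Spi1, held by 4.42% of all tested genes, was seen in 0 of 7 B cell and 0 of 5 megakaryocyte genes. Lists this short cannot show a lack of that order.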
